A study of Homo sapiens with 14 samples.

Results

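Tumours grown in mice from UMUC3, an established line of human bladder carcinoma, were compared between FASN knockdown cells and control cells, with both culture histories combined. All 14 libraries of the study enter: 7 carry the knockdown label and 7 the control label. FASN knockdown cells grown in 10% cigarette smoke medium (CSM) before engraftment gave 4 libraries and their CSM-grown control gave 4, while knockdown cells grown in regular medium gave 3 and their control gave 3. The titles mark control libraries with "sh"; the labels give no hairpin sequence, number of clones or mouse strain, and do not say whether each library is a separate animal, so p-values measure the spread between libraries. The question was which genes the 7 against 7 comparison, with medium as an additive term, adds to the comparisons made within each medium. Among 22560 genes tested, 973 passed the 7 against 7 test and 744 of these passed in neither medium alone. Those 744 are called the added genes here. The same libraries chose them, so their 7 against 7 values describe them and are not a further test of them.

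FASN encodes fatty acid synthase, the cytosolic enzyme that builds palmitate from acetyl-CoA and malonyl-CoA. Its transcription, like that of the cholesterol pathway, is driven by the sterol regulatory element-binding proteins (SREBPs), which are held in the endoplasmic reticulum when sterols are plentiful and released to the nucleus when they are scarce. SREBP-1 favours fatty acid genes and SREBP-2 favours sterol genes, and both bind promoters together with the CCAAT-binding factor NF-Y. Tumours, bladder cancers among them, often make their own fatty acids through FASN in place of taking them up.

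FASN (chr17:82078333-82098332, GRCh38, minus strand) was read in every library before any other gene. It stood at 121, 99.9 and 132 CPM (gene counts scaled per 1e6 counts of the normalised library) in FASN knockdown libraries from regular medium, against 571, 404 and 379 CPM in their controls. In libraries labelled FASN knockdown after CSM it stood at 220, 166, 301 and 479 CPM, against 456, 479, 423 and 366 CPM in the CSM controls. In CPM the regular-medium groups were far apart. FASN knockdown after CSM replicate 4 lay inside the control range in CPM, so its FASN level goes against its label. The separation was weaker in TPM (the authors' values, scaled for transcript length), where controls ran from 28.2 to 67.1. FASN knockdown replicate 3 (34.2) and knockdown after CSM replicates 1 and 3 (63.1 and 65.5) lay inside that range. Knockdown after CSM replicate 4 (102.6) lay above it. FASN knockdown replicates 1 and 2 (10.7 and 7.14) and knockdown after CSM replicate 2 (21.6) lay below it. Over all libraries the mean FASN TPM was 43.5 with knockdown and 52.2 in controls. In CPM, FASN averaged 217 ± 134 CPM with knockdown and 440 ± 70.4 CPM in controls (SD, n = 7 each), 49.3% of the control level. The log2 fold change was -1.15 with a standard error (SE) of 0.27 (adjusted p = 0.0264, edgeR quasi-likelihood test with Benjamini-Hochberg adjustment over all genes tested). An exact two-sided permutation test of the mean difference, with labels exchanged within each medium, gave p = 0.00571, where 0.00143 is the smallest value that its 1400 relabellings allow. Leaving out 1 library at a time gave log2 fold changes of -1.383 to -0.9967, and the call held in 7 of the 14 fits. The adjusted p was 0.00435 without knockdown after CSM replicate 4 and 0.0639 without FASN knockdown replicate 3. FASN was called in regular medium (-1.94, adjusted p = 0.0245) and not after CSM (-0.57, adjusted p = 0.288), so it is not one of the added genes.

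**Figure D1:**
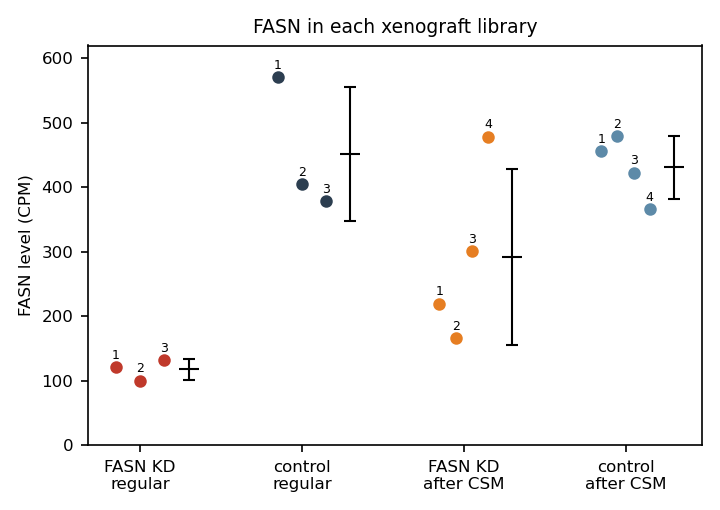
FASN level in CPM (vertical axis, from 0) in each library of the 4 groups, with replicate numbers beside the points and mean ± SD as bars to their right. Knockdown libraries from regular medium lie between 99.9 and 132 CPM, and 1 of the 4 knockdown libraries after CSM, replicate 4 at 479 CPM, lies among the controls.

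Depth ran from 15810287 to 45209466 assigned counts per library. Signal recognition particle RNA (7SL) took between 2.64% and 25.6% of the counts, with 25.6% in FASN knockdown replicate 2 and 16.3% in control after CSM replicate 3. Epithelial marker RNA was sparse: of 27 urothelial and epithelial markers, 16 were under 1 CPM in every library, and KRT18 was present at 115 ± 23.1 CPM with knockdown and 176 ± 19.7 CPM in controls (SD, n = 7 each). Of the markers of host cells, 6 of 10 fibroblast, 6 of 10 endothelial, 8 of 12 leukocyte, 4 of 6 adipocyte and 5 of 5 muscle genes were under 1 CPM in every library. RNA of the mouse host that matched human transcripts was not separated, and in tissue of this kind fewer cells of a type and less RNA per cell cannot be told apart.

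More genes passed the test with both media than in either medium. With both media, 441 genes were higher (1.95% of those tested) and 532 lower (2.36%) in FASN knockdown xenografts, 973 or 4.31% in all, while 4624 had an unadjusted p below 0.05. In regular medium alone 46 genes (0.204%) were called, 6 higher and 40 lower. After CSM alone 264 genes (1.17%) were called, 97 higher and 167 lower. The 744 added genes were 3.3% of those tested and 76.5% of the 7 against 7 calls, and comprised 376 genes higher and 368 lower with knockdown. Another 34 genes were called in all 3 comparisons, 184 with both media and after CSM, and 11 with both media and in regular medium. The combined comparison held 97.8% of the regular-medium calls and 82.6% of the CSM calls.

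The fitted sign of the added genes was the same in regular medium and after CSM in 744 of 744, which the rule that chose them nearly fixes, so it is no sign of stability between media. The unadjusted p was below 0.05 in both media for 562 of them, in regular medium for 580 and after CSM for 726. No gene was called by the edgeR test of whether the knockdown difference itself differs between media (smallest adjusted p 0.503, 1178 of 22560 genes with an unadjusted p below 0.05, and 7 genes called by DESeq2). Of the added genes, 9 had an unadjusted interaction p below 0.05. The rule that chose them favours a low count here, so nothing is read from it. Their median SE was 0.25 on the log2 scale with both media, 0.38 in regular medium and 0.33 after CSM. Their median absolute log2 fold change was 1.04, and that of the 229 genes also called in a medium was 1.53, a difference that the rule itself favours. In 117 added genes every knockdown library was above every control library, and in 125 every knockdown library was below, where the same held for 0.833% and 1.29% of all genes tested. The choice of genes by the same libraries gives such an excess, and nothing is read from it.

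**Figure D2:**
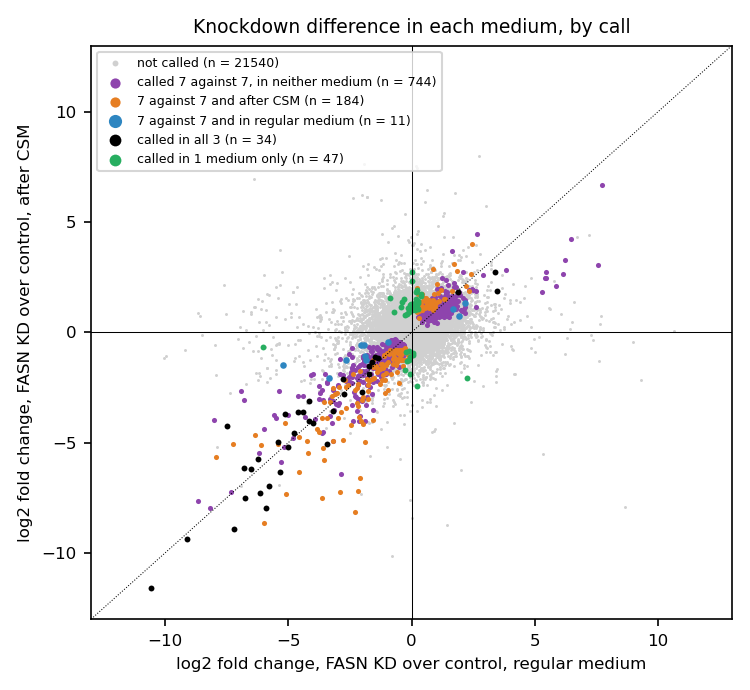
Log2 fold change of FASN knockdown over control in regular medium (horizontal axis) and after CSM (vertical axis) for each gene tested, coloured by the comparison that called it, with the line of equal change dotted. The 744 added genes, in purple, lie in the quadrants where both media have the same sign.

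The line between added and other genes is thin at each edge. Just inside the 7 against 7 threshold were MEX3A (log2 fold change -0.46, adjusted p = 0.0499 by the edgeR test), TRIM7 (-0.50, 0.04999) and NFE2L2 (-0.47, 0.04999), and just outside it were GLB1L2 (-0.62, 0.05003), PEX10 (-0.61, 0.0501) and PARP11 (-0.62, 0.0502). RAB34, ACSS2 and SH3RF1 counted as added with an adjusted p of 0.0501 after CSM, whereas CDH10, TENM1 and JAG1 at 0.0487, 0.0487 and 0.0498 did not. Without FASN knockdown after CSM replicate 4, 574 genes were added and 441 of them were among the 744, which is 59.3% of the original list and 76.8% of the new one. Without FASN knockdown replicate 3, 262 genes were added. In that fit 702 genes were called 7 against 7, with 418 of the 744 among them, and 986 were called after CSM, so that 204 of the 744 still counted as added.

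Genes of cholesterol synthesis were higher in FASN knockdown xenografts. Of 20 pathway genes, all tested, 10 were called higher and 0 lower, where 1.95% of all genes were called higher. Of these, 6 are added genes, HMGCS1, SQLE, DHCR7 and FDFT1 among them, and MVK, MVD, LSS and HSD17B7 had also been called after CSM. Regular medium alone called 0 of the 20 and CSM alone 4, although the list medians were 0.91 in regular medium and 0.92 after CSM. With both media the median log2 fold change was 0.96, against 0.01 over all genes tested, and 19 of the 20 were positive.

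Promoter stretches are shown for called sterol genes and for SCD because NF-Y, the partner of the SREBPs, reads the CCAAT box. The sequences are from RefSeq promoters (GRCh38.p14), 5′ to 3′ on the gene's strand, kept to bases upstream of the RefSeq start and outside every GENCODE exon, and capitals mark CCAAT on either strand (ATTGG is its reverse complement). The LSS stretch is chr21:46228825-46229024, minus strand. That of MVD is chr16:88663162-88663297, minus strand. That of HMGCS1 is chr5:43313513-43313662, minus strand. That of HSD17B7 is chr1:162790452-162790701, plus strand. That of DHCR7 is chr11:71448436-71448643, minus strand. That of SCD is chr10:100346983-100347123, plus strand. HMGCS1 and DHCR7 each have 2 starts in the table, and the start whose window holds the motif is shown. The DHCR7 stretch lies inside the gene as GENCODE draws it, and the other 5 lie outside their genes. The MVK window lies wholly in exons and is not printed.
LSS: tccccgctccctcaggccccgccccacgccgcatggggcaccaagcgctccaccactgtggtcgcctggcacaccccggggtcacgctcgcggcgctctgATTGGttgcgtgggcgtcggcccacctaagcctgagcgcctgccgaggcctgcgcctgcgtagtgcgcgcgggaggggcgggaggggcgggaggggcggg
MVD: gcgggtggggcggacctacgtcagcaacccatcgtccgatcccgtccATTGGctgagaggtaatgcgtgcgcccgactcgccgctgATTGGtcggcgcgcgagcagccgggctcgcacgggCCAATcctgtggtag
HMGCS1: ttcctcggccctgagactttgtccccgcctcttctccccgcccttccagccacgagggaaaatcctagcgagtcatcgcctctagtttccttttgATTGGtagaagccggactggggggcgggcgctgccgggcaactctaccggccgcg
HSD17B7: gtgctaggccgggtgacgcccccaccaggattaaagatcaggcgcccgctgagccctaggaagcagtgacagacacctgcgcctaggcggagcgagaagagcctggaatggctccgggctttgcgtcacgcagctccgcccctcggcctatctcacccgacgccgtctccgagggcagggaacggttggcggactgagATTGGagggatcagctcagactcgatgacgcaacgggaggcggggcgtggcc
DHCR7: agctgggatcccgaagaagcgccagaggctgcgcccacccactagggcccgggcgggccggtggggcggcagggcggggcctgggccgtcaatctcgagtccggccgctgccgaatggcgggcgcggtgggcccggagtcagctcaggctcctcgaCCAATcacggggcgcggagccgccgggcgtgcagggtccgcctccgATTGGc
SCD: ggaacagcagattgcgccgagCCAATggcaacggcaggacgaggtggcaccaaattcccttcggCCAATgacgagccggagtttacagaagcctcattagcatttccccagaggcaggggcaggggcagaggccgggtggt

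Upstream windows of 250 bases were found for 15 of the 20 sterol genes. CCAAT was present on either strand in 13 of the 15 (86.7%), in all 6 of those that were called, and in 37.0% of the 27305 genes with a window and 41.5% of the tested protein-coding genes. Sterol genes that were not called also held it, EBP, FDPS and IDI1 among them, while CYP51A1 and PMVK, also not called, lacked it. It was in 61.9% of 21 fatty acid synthesis genes and 53.3% of 15 sterol uptake and regulation genes. A link between the motif and the calls was not tested. The MVD stretch holds 1 forward and 2 reverse copies. One spelling of the sterol regulatory element, TCACNCCAC on either strand, was in 0 of the 15 windows and in 1.09% of all genes, which says only that those letters are not in these windows. Among added genes, CCAAT was in 41.2% of 182 that were higher and 37.2% of 277 that were lower, both near the background. TCACNCCAC was in 9 of those 182 (4.9%) and 9 of those 277 (3.2%). It was in 1.09% of all genes and 1.2% of tested protein-coding genes, and the difference was not tested.

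HMGCS1 makes HMG-CoA, the first committed substrate of the pathway. It had 279, 471 and 40.2 CPM in FASN knockdown libraries from regular medium and 238, 343, 371 and 441 CPM in knockdown libraries after CSM. The controls had 86.9, 100 and 95.6 CPM in regular medium and 125, 77.1, 164 and 88.0 CPM after CSM. Every knockdown library was above every control except FASN knockdown replicate 3, which was below all of them. The log2 fold change was 1.56 (SE 0.35, adjusted p = 0.0221, edgeR), and the call held in 13 of the 14 fits that left out 1 library.

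SQLE, the squalene epoxidase, had a log2 fold change of 1.02 and DHCR7, which makes cholesterol from 7-dehydrocholesterol, one of 1.01. FDFT1, which joins farnesyl diphosphate into squalene, had one of 0.98. These 3 calls held in 3, 4 and 8 of the 14 fits. LSS, which closes the sterol rings, was higher at 166 ± 53.9 CPM with knockdown, against 75.0 ± 13.7 CPM in controls (SD, n = 7 each), with a log2 fold change of 1.12 (SE 0.16, adjusted p = 0.00103, edgeR). MVK and MVD, kinase and decarboxylase of the mevalonate steps, rose by log2 1.21 and 1.19 and held in 14 of 14 fits. PMVK, between them in the pathway, had a log2 fold change of -0.36 (adjusted p = 0.514).

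FASN knockdown replicate 3 stood apart from the rest of its arm on this list. The mean log2 CPM of the 20 genes was 5.00 there, against 6.02 to 7.00 in the other 6 knockdown libraries and 5.30 to 6.16 in controls. FASN in that library was 132 CPM, against 121 and 99.9 CPM in the other knockdown libraries from regular medium. Without it 13 of the 20 genes were called, and without FASN knockdown after CSM replicate 4, which had the highest list mean, 5 were. Without the 2 libraries over 15% 7SL, 4 were called.

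Fatty acid synthesis genes did not move as a list. Of 22 tested, SCD and ACSS2 were called higher and both are added genes, FASN was called lower, and the median log2 fold change was 0.02; over all genes 1.95% were called higher and 2.36% lower. SCD, the desaturase that makes oleate from stearate, had 1493, 1842 and 343 CPM in knockdown libraries from regular medium and 1227, 1648, 2482 and 2682 CPM in those after CSM. Controls had 472, 416 and 394 CPM in regular medium and 668, 404, 1177 and 426 CPM after CSM. The knockdown library below the controls was again FASN knockdown replicate 3, and the other 6 were above every control. The log2 fold change of SCD was 1.56 (SE 0.33, adjusted p = 0.0164, edgeR), and the call held in 14 of 14 fits.

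ACSS2, which turns acetate into acetyl-CoA, averaged 84.7 ± 36.5 CPM with knockdown and 45.8 ± 2.94 CPM in controls (SD, n = 7 each), without overlap, for a log2 fold change of 0.85 (SE 0.20, adjusted p = 0.0279, edgeR). SREBF1, the gene of SREBP-1, ranged from 99.7 to 241 CPM with a median of 131 in knockdown libraries, against 49.5 to 116 CPM with a median of 84.6 in controls, and rose by log2 0.86 (SE 0.20, adjusted p = 0.0233, edgeR). It was the 1 called gene of 17 tested in the sterol uptake and regulation list, a share near the 4.31% of all genes. INSIG1, which retains SREBPs in the endoplasmic reticulum, had a log2 fold change of 1.10 (adjusted p = 0.0682) and SREBF2, the gene of SREBP-2, one of 0.36 (0.391), and neither was called. ACLY and ACACA, the enzymes just upstream of FASN, had 0.19 and 0.40 (adjusted p = 0.618 and 0.267).

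**Figure D3:**
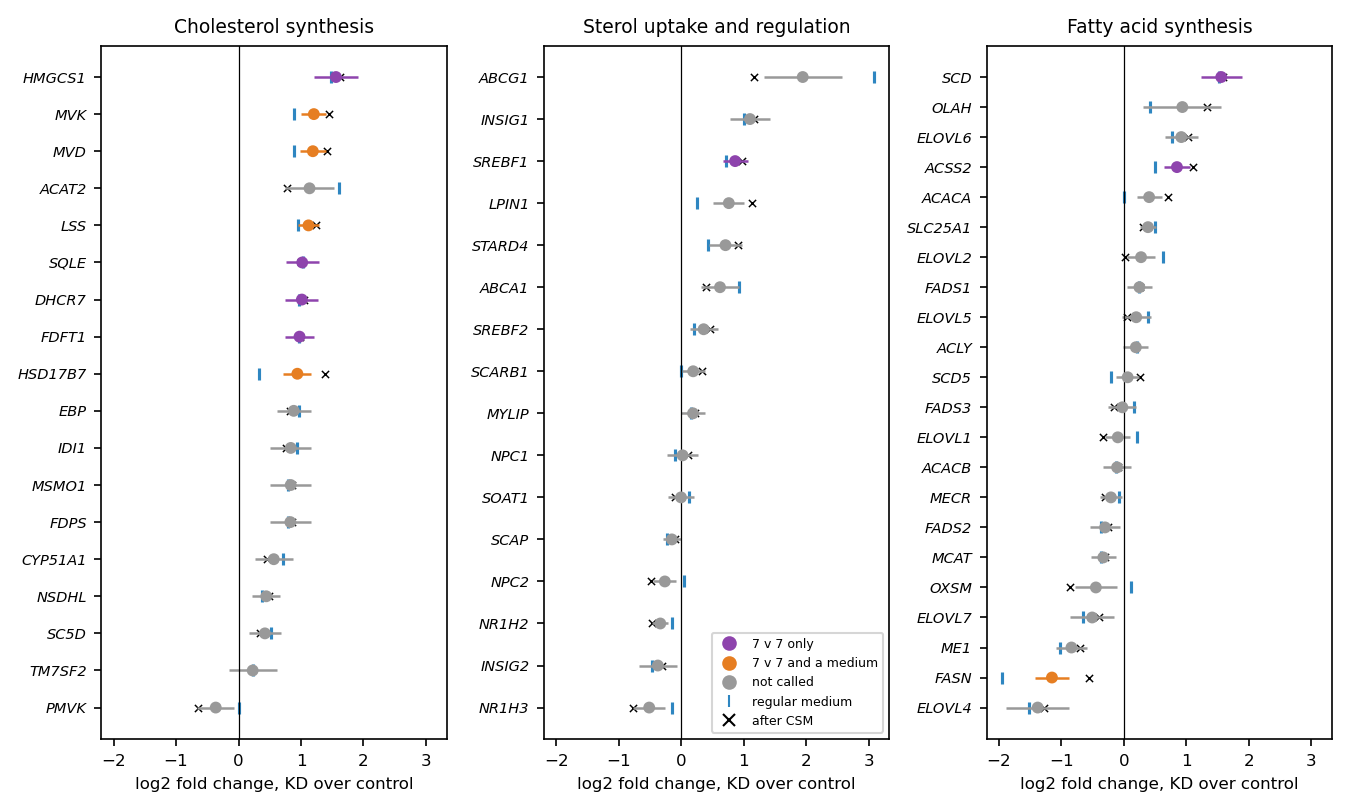
Log2 fold change of FASN knockdown over control for named genes of cholesterol synthesis, sterol uptake and regulation, and fatty acid synthesis, with both media (points, bars are SE) and in each medium (blue ticks and black crosses). Among the cholesterol genes drawn PMVK alone lies left of 0, and FASN itself lies at -1.15.

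Genes of fatty acid oxidation that passed the test were lower: 4 of 34 fell and 0 rose, beside 2.36% of all genes lower. The list median was -0.13, near the -0.10 of all protein-coding genes tested. It was 0.05 in regular medium, where 0 of the list were called, and -0.32 after CSM, where 3 were. EHHADH, the peroxisomal bifunctional enzyme, is the added member, at 0.674 ± 0.309 CPM with knockdown and 1.81 ± 0.824 CPM in controls (SD, n = 7 each). CPT1A, which moves fatty acids into mitochondria, ranged from 136 to 310 CPM with a median of 195 in knockdown libraries, against 331 to 435 CPM with a median of 396 in controls, so the arms did not overlap. Its log2 fold change was -0.89 (SE 0.17, adjusted p = 0.00731, edgeR), with -1.25 after CSM, where it was called, and -0.41 in regular medium. PPARGC1A, a coactivator of mitochondrial genes, was at 0 to 1.44 CPM with a median of 0.168 in knockdown libraries, against 0.815 to 46.4 CPM with a median of 6.34 in controls.

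In the lists around lipid handling, PLIN2, the coat protein of lipid droplets, fell (log2 fold change -0.93, SE 0.24, adjusted p = 0.0411, edgeR), and ACSL6, an acyl-CoA synthetase, rose by 0.79. SPTLC3, a subunit of the enzyme that starts sphingolipid synthesis, ranged from 9.49 to 22.1 CPM with a median of 17.9 in knockdown libraries, against 2.69 to 8.95 CPM with a median of 3.83 in controls, without overlap. It rose by log2 1.79 (SE 0.29, adjusted p = 0.0025, edgeR). KDSR, which acts in the step after it, fell by 0.75, and PCYT2, of phosphatidylethanolamine synthesis, rose by 0.65. These 5 are all added genes. In the lipid uptake and storage list 1 rose and 1 fell of 28 tested, with a median of -0.07. In the phospholipid and sphingolipid list 2 rose and 1 fell of 41 tested, with a median of -0.02. Of all genes tested 1.95% were called higher and 2.36% lower, so neither list moved as a whole.

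The added protein-coding genes with the largest rises at 2 CPM or more were ENSG00000283782, ALDH1A1, ADAMTS19, SYT16, SPTLC3, COL4A5, IL19, C6orf141, CDH2, PTPN22, GRB14 and HMGCS1, with log2 fold changes between 1.56 and 2.16. ALDH1A1 (chr9:72900662-73080442, minus strand), which oxidises retinal to retinoic acid, ranged from 48.1 to 186 CPM with a median of 95.9 in knockdown libraries. Controls ranged from 5.81 to 46.6 CPM with a median of 26.7, so the arms did not overlap, and the log2 fold change was 2.11 (SE 0.40, adjusted p = 0.00823, edgeR). CDH2, N-cadherin, ranged from 76.6 to 177 CPM with a median of 105 in knockdown libraries, against 10.4 to 56.5 CPM with a median of 42.9 in controls, and rose by log2 1.60 (SE 0.32, adjusted p = 0.0112, edgeR). It was the 1 called gene of 19 mesenchymal genes tested, near the 4.31% of all genes, so nothing is read from the lack of other calls. ADAMTS19, a secreted protease, averaged 18.4 ± 5.17 CPM with knockdown and 5.08 ± 3.00 CPM in controls (SD, n = 7 each). SYT16, a synaptotagmin, averaged 50.2 ± 18.1 CPM with knockdown and 14.3 ± 6.28 CPM in controls. The calls of ALDH1A1, CDH2, ADAMTS19 and SYT16 held in 14 of 14 fits.

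The largest falls were those of ADGRG6, SPNS2, PKP2, TP63, HAS2, WNT5A, LINGO2, SEMA3D, MAN1A1, FGF13, TMPRSS15 and LRP1B, between -5.04 and -2.15 on the log2 scale. ADGRG6 (chr6:142301854-142446266, plus strand), an adhesion G protein-coupled receptor that binds type IV collagen, was at 0 to 0.342 CPM with a median of 0.0847 in knockdown libraries, against 0.17 to 13.4 CPM with a median of 2.33 in controls. The lowest control, after CSM replicate 3, overlapped the knockdown arm. WNT5A, a ligand of noncanonical Wnt signalling, was at 0.224 to 2.22 CPM with a median of 1.44 in knockdown libraries, against 3.2 to 17.0 CPM with a median of 6.76 in controls, without overlap. Its log2 fold change was -2.67 (SE 0.48) with an adjusted p of 0.00589 (edgeR). ROR2, a receptor for WNT5A, fell by 1.01 and TCF7, a transcription factor of the canonical branch, rose by 0.96. Of 31 Wnt genes tested 3 were called higher and 2 lower, beside 1.95% and 2.36% of all genes. Fitted changes were positive in 11 of the 31 and negative in 20, and no pattern by branch was tested.

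TP63, the transcription factor of basal urothelium, was at 0.346 to 8.41 CPM with a median of 1.44 in knockdown libraries, against 3.15 to 65.1 CPM with a median of 11.7 in controls. HAS2, which makes hyaluronan, was at 1.51 to 30.7 CPM with a median of 4.94 in knockdown libraries, against 19.7 to 224 CPM with a median of 59.2 in controls. In both genes the arms overlapped and the control maximum was control after CSM replicate 3. Their calls held in 4 and 5 of 14 fits. TP63 belongs to the urothelial and epithelial list, where 9 of 15 tested members had positive fitted changes and 6 negative. Of that list 0 were called higher and 2 lower. KRT5 of the same list had medians of 6.62 CPM with knockdown and 1.53 CPM in controls, and KRT8 medians of 88.0 and 94.1 CPM. PKP2, a desmosomal plakophilin, fell by 2.75 without overlap between arms. In SPNS2, a sphingosine-1-phosphate exporter, and MAN1A1, a Golgi mannosidase, the arms overlapped. The calls of these 3 genes held in 14 of 14 fits.

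**Figure D4:**
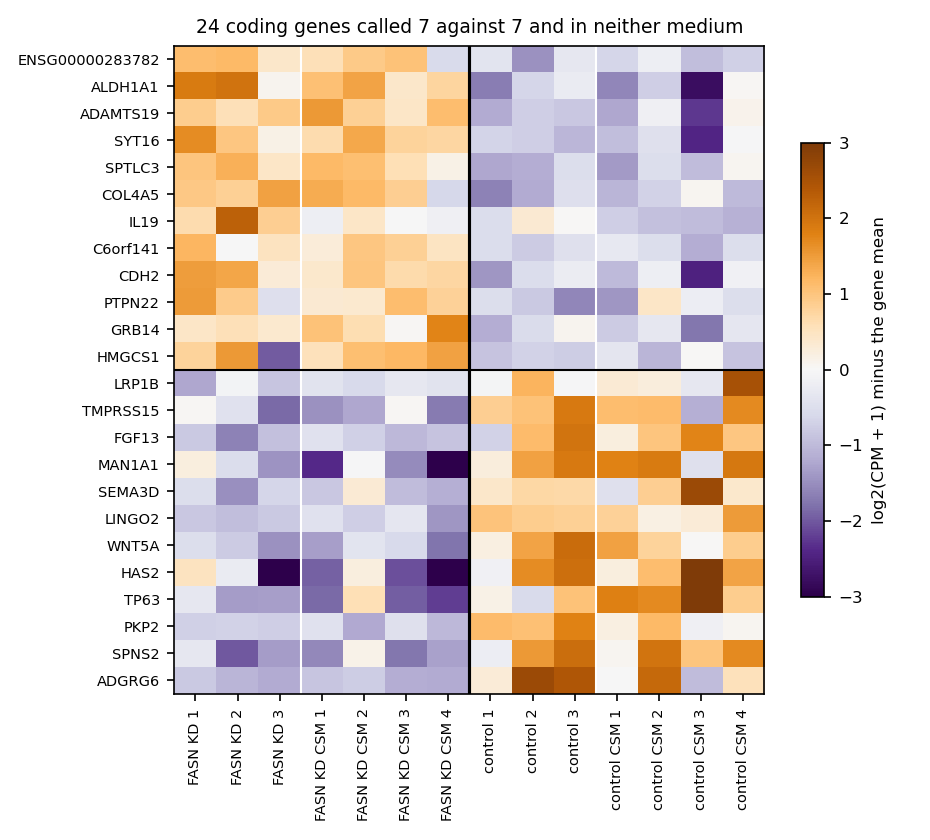
Log2(CPM + 1) minus the gene's mean in 14 libraries (columns, the 7 knockdown libraries on the left) for the 12 added coding genes with the largest rises (top rows) and the 12 with the largest falls (bottom rows). Exceptions within an arm show as single cells, such as HMGCS1 at 40.2 CPM in FASN knockdown replicate 3.

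Among 50 extracellular matrix genes tested, 5 rose and 6 fell, beside 1.95% and 2.36% of all genes. Added genes made up 6 of the 50, beside 3.3% of all genes tested. The called type IV collagens of basement membrane went in opposite directions. COL4A5 ranged from 25.1 to 108 CPM with a median of 76.6 in knockdown libraries, against 12.0 to 40.8 CPM with a median of 19.1 in controls, and rose by log2 1.78 (SE 0.30, adjusted p = 0.00371, edgeR). Its head-to-head neighbour COL4A6, called in all 3 comparisons, rose by log2 2.54 (SE 0.39, adjusted p = 0.0017, edgeR). The pair lies on chromosome X, COL4A6 at 108155607 to 108439497 on the minus strand and COL4A5 at 108439844 to 108697545 on the plus strand. In both, the lowest knockdown library was FASN knockdown after CSM replicate 4, at 25.1 CPM for COL4A5 and 14.98 CPM for COL4A6, inside the control range. COL4A1 and COL4A2, also a head-to-head pair, fell by 1.39 and 1.29. In the remaining pair COL4A4 had a log2 fold change of 1.199 (adjusted p = 0.0598, edgeR) and COL4A3 did not pass the filter on low counts. COL6A3 rose by 1.02, and FBN1, fibrillin, fell by 1.62 without overlap between the arms.

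TRPC4, TCF21 and SPANXA1 were named for their large falls among genes called in every comparison. The 7 against 7 and CSM comparisons counted FASN knockdown after CSM replicate 4 as knockdown. These genes are therefore no independent check of the label of that replicate. TRPC4, a cation channel, was at 0 CPM there and at most 0.177 CPM in the other knockdown libraries, against 5.07 to 16.1 CPM in controls. TCF21, a transcription factor, was also at 0 CPM there and at most 0.455 CPM elsewhere in the arm, against 6.69 to 26.1 CPM in controls. SPANXA1, a cancer-testis gene with near-identical copies among which reads may be split, was at 0 CPM in all 7 knockdown libraries, against 4.23 to 17.5 CPM in controls. In CPM, replicate 4 sat with the knockdown arm on these genes, while on FASN and COL4A6 it sat with the controls.

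Stress, metabolic and receptor lists added few members, mostly lower. Added and lower were 2 of 30 oxidative response genes tested and 1 of 6 genes of the aryl hydrocarbon receptor list. The same held for 2 of 25 glycolysis genes, 1 of 19 citric acid cycle genes and 1 of 24 receptor kinases. Of all genes tested 3.3% were added and 2.36% were called lower, and nothing is read from such small counts. SLC7A11, the cystine importer that feeds glutathione synthesis, ranged from 2.43 to 9.35 CPM with a median of 4.15 in knockdown libraries, against 8.83 to 21.3 CPM with a median of 16.4 in controls. Its log2 fold change was -1.67 (SE 0.28) with an adjusted p of 0.00371 (edgeR). NFE2L2, the NRF2 factor of the oxidative response, fell by 0.47, a call that none of the 14 fits without 1 library kept. AHR, the receptor for aryl hydrocarbons such as those in smoke, ranged from 1.27 to 2.21 CPM with a median of 1.78 in knockdown libraries, against 1.95 to 10.5 CPM with a median of 4.48 in controls, and fell by 1.63 with similar values in regular medium (-1.71) and after CSM (-1.57). HK2 and ALDOC, of glycolysis, fell by 1.17 and 1.85, and PC, pyruvate carboxylase, by 0.58. PDGFRB, a growth factor receptor also counted as a fibroblast marker, was at 1.05 ± 0.603 CPM with knockdown and 3.53 ± 0.913 CPM in controls (SD, n = 7 each). The summed level of the 10 fibroblast markers was 7.36 to 15.6 CPM in knockdown libraries and 14.5 to 81.7 CPM in controls, and its part in the matrix results was not tested. In controls POSTN and THY1 carried most of that sum, and their medians were 0.495 and 6.19 CPM in knockdown libraries and 15.8 and 20.3 CPM in controls, while COL1A1 had medians of 2.32 CPM with knockdown and 2.39 CPM in controls. Of the 7 fibroblast markers tested, 3 fell and 3 had positive fitted changes. FAS, the death receptor, rose by 0.73 as the 1 called gene of 25 p53 targets, a share near the 4.31% of all genes. No gene of the cell cycle (38 tested), interferon (30) or unfolded protein response (26) lists was called by edgeR with both media. Beside 4.31% of all genes, nothing is read from the lack of calls in lists this short. Fitted changes were negative in 33, 9 and 23 of their genes, with list medians of -0.27, 0.16 and -0.20. CENPA of the cell cycle list was called lower after CSM alone (-1.04, adjusted p = 0.0388, edgeR). The members with the smallest 7 against 7 p were CCNA2 (-0.79, adjusted p = 0.0649), MX2 (1.497, 0.0686) and DNAJB9 (-0.71, 0.178).

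Ribosomal protein genes all had negative fitted changes, 77 of 77 with a median of -0.55, but only RPL31 and RPL37 passed the test, beside 2.36% of all genes called lower, and neither call held in more than 2 of 14 fits. Mitochondrial ribosome genes had 3 calls of 78, MRPS30, MRPL12 and MRPL53, all added and lower, and a median of -0.34. That share is near the background of 2.36% lower and 3.3% added. The 13 genes encoded in mitochondrial DNA were all positive with a median of 0.69 and none was called, MT-ATP8 coming closest at 0.79 (adjusted p = 0.093, edgeR). Over both media mean ribosomal protein levels overlapped between the arms, from 7.52 to 9.06 log2 CPM in knockdown libraries and 8.39 to 9.17 log2 CPM in controls. After CSM alone they did not overlap. There they were 7.52, 8.13, 8.40 and 8.66 log2 CPM with knockdown and 9.16, 9.01, 9.17 and 8.74 log2 CPM in controls. The list median was -0.19 in regular medium and -0.79 after CSM, and the difference between media was not tested for the list.

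Added genes differed by kind. Of 524 protein-coding added genes 186 were higher and 338 lower, while of the 220 others 190 were higher and 30 lower. Over all tested long noncoding RNAs (lncRNAs) the median log2 fold change was 0.36 and 71.4% were positive, against -0.10 and 38.7% for protein-coding genes. lncRNAs held 2.13% to 9.15% of the counts with a median of 4.68% in knockdown libraries, against 2.34% to 4.26% with a median of 3.63% in controls, and the ranges overlapped. Retained-intron transcripts held 3.14% to 8.88% of counts in knockdown libraries and 3.64% to 6.08% in controls, and the part of either share in the calls was not tested. With upper-quartile factors the median of all genes moved to 0.12 and the coding added genes split into 271 higher and 238 lower, and the share of 7 against 7 calls that were higher went to 62.9% in place of 45.3%. Named examples include LINC02450 at 5.61 CPM with knockdown and 1.90 CPM in controls (log2 fold change 1.61, adjusted p = 0.0025, edgeR), and SNHG32, a host of small nucleolar RNAs, at 115 CPM with knockdown and 206 CPM in controls (-0.86, adjusted p = 0.0499).

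**Figure D5:**
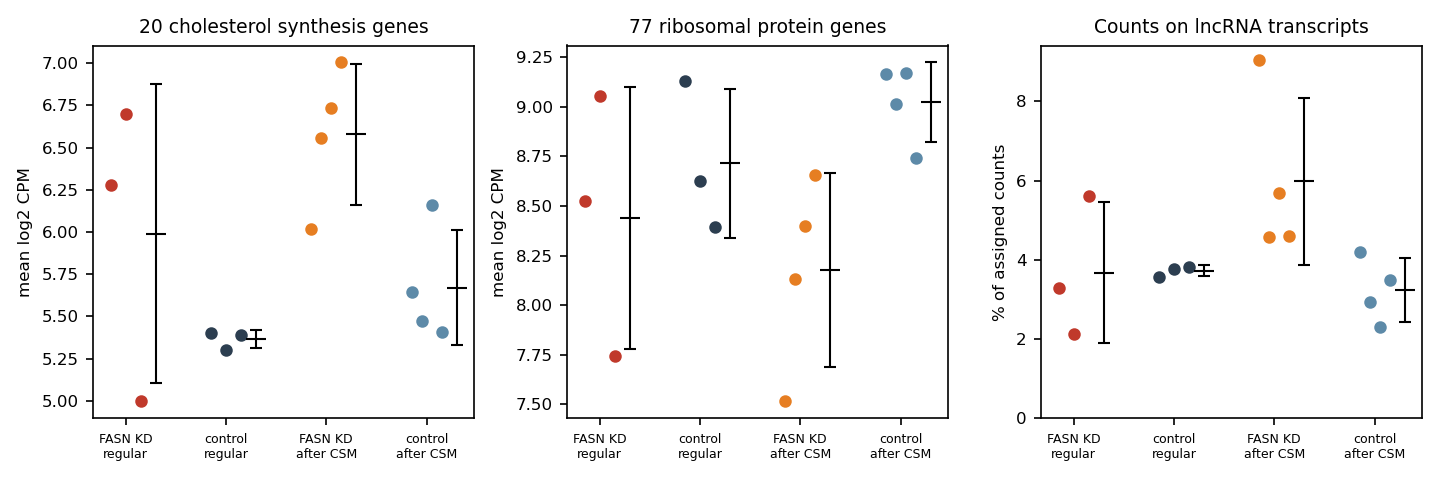
Mean log2 CPM of the cholesterol synthesis and ribosomal protein genes and percent of assigned counts on lncRNA transcripts (vertical axes) by library in the 4 groups, with mean ± SD beside the points. One knockdown library from regular medium, replicate 3, lies below all controls for cholesterol synthesis at 5.00.

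Some added genes lay side by side. There were 7 runs of 4 or more added genes with the same sign and gaps under 500000 bases. How many such runs gene order alone would give was not tested, so nothing is read from their number. Each span was chosen by the added genes inside it, and its count of positive genes includes them. On chromosome 11 (5301014 to 5737089) OR51B4, OR51B5, OR51K1P, OR51I1, OR51A10P and TRIM22 rose by log2 1.49 to 2.45, and 11 of the 14 genes tested in that span were positive. TRIM22, an antiviral ubiquitin ligase, averaged 44.9 CPM with knockdown and 14.9 CPM in controls. On chromosome 5 (140882208 to 141320821) PCDHA13, PCDHB6, PCDHB9, PCDHB13, PCDHB14 and TAF7 fell by 0.76 to 1.57, with 3 of 25 genes in the span positive. On chromosome 15 DUOX2 and DUOX1, oxidases that make hydrogen peroxide, rose by 1.04 and 0.93 beside SLC28A2. Protocadherins and olfactory receptors have close copies and some genes in these spans overlap, and the labels do not give the strand of counting, so reads cannot be told apart fully.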

How the data were processed

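RNA from frozen xenograft tissue was sequenced in 14 libraries. Per the submitters' processing notes the tools were FastQC, cutadapt and Salmon with the build GRCh38, with no versions and no named transcript annotation. Per the file headers, the authors' files hold estimated counts, TPM and effective lengths per transcript. Estimated counts were summed to 62749 genes and rounded; 57804 genes took GENCODE v29 coordinates (GRCh38) by identifier.

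Genes were tested with edgeR 4.0.16 (R 4.3.3): filterByExpr by group (minimum count 10, minimum total 15), TMM factors and the quasi-likelihood test with Benjamini-Hochberg adjustment at 0.05. The 7 against 7 test used medium plus knockdown (11 residual degrees of freedom). The comparisons within a medium were contrasts of a fit of the 4 groups (10 residual degrees of freedom), so they share 1 estimate of the spread. CPM uses the TMM factors, and an SE is the log2 fold change divided by the square root of F. Replicates differed by more than sampling noise. DESeq2 1.42.0 and limma 3.58.1 on log2(TPM + 1) were alternatives, as were other filters, factors and covariates, a replicate block, and leaving out each library.

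Named genes were FASN, the 12 largest rises and 12 largest falls among added coding genes at a mean of 2 CPM or more, members of the gene lists by smallest p, genes called in all 3 comparisons, and members of the sterol, fatty acid synthesis and oxidation lists. LINC02450, SNHG32, COL4A4, CENPA, the genes at the thresholds and those in runs of neighbours were chosen after their values were seen. The members and lists were chosen with earlier results of these data known. Some genes of these lists are counted but not reported here by name.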

Additional observations from a re-analysis of the deposited data

Results flagged for a closer look

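For 79 named genes called with both media, the 4 libraries of each CSM group were searched for a single library far from the other 3, on log2(CPM + 1). There were 8 such libraries in 157 gene and group pairs (5.1%), and chance flags about 1 in 20 groups. In FASN knockdown after CSM, ANKRD37, a hypoxia-induced gene, was at 5.61 CPM in replicate 3, with the others at 1.48 to 1.77 CPM. TP63 was at 8.41 CPM in replicate 2, with the others at 0.346 to 0.71 CPM. FBN1 was at 1.88 CPM in replicate 2, with the others at 1.32 to 1.39 CPM. PC was at 67.4 CPM in replicate 1, with the others at 81.6 to 82.7 CPM. TRPC4 was at 0.177 CPM in replicate 1, with the others at 0 CPM. In control after CSM, MAN1A1 was at 29.5 CPM in replicate 3, with the others at 144 to 160.1 CPM, and ACSL6 was at 2.44 CPM in the same replicate, with the others at 4.06 to 4.45 CPM. HK2 was at 369 CPM in control after CSM replicate 1, with the others at 208 to 226 CPM.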

How the results depend on the processing

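The 7 against 7 count was 973 and moved to 1659 with no filter, 555 with a length offset, 78 with limma on TPM, 1530 with the 7SL share as a covariate, 584 at an absolute log2 fold change of at least 1, 210 at adjusted p below 0.01 and 2182 with DESeq2. The added count of 744 moved to 443 with the length offset, 45 with limma on TPM, 1171 with the 7SL covariate, 411 with the fold limit, 162 at 0.01 and 128 when an unadjusted p of at least 0.01 in both media was also asked. The regular-medium count moved to 389 with no filter, 23 with the length offset, 17 with limma, 134 with the 7SL covariate, 18 without the libraries over 15% 7SL, 11 at 0.01, 25 with each medium fitted alone and 346 with DESeq2. The CSM count moved to 1178, 126, 59, 133, 52 and 1452 with no filter, the length offset, limma, those libraries left out, 0.01 and DESeq2. Interaction calls were 121 with no filter and 7 with DESeq2. The share of calls that were higher was 62.92% with upper-quartile factors, 60.73% with a 2 CPM filter, 23.08% with limma, 26.19% at 0.01 and 55.45% with DESeq2. Cholesterol synthesis calls were 2 with limma, 4 without the libraries over 15% 7SL and 4 at 0.01. FASN lost its call with no medium covariate (-1.021), the length offset (-0.9505), limma (-0.6951), without the libraries over 15% 7SL (-1.079) and at 0.01 (-1.152). The cause was not tested. Among the 744 added genes the sign turned for 1 with the length offset and for 4 with limma, and for 0 in the other settings.

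No pairing by replicate number showed in the levels: same-numbered deviations correlated between -0.188 and 0.0801. The labels do not say whether the numbers pair libraries, and these correlations cannot exclude a pairing. With the replicate block 275 genes were called with both media (28% higher), 245 were added (122 of the 744 among them), 11 in regular medium, 30 after CSM, 4 in cholesterol synthesis, and FASN had -1.225 (adjusted p = 0.0728).

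Leaving out 1 library at a time gave 431 (without control replicate 2) to 1344 (without FASN knockdown replicate 1) calls with both media, 262 (without FASN knockdown replicate 3) to 1084 added genes, 11 to 56 calls in regular medium, 86 to 986 after CSM, 4 to 13 in cholesterol synthesis, 35.21% to 52.16% of calls higher, and FASN log2 fold changes of -1.383 to -0.9967, called in 7 of 14. The added count also fell by over 1.5 times without controls 1 and 2, control after CSM 2, 3 and 4, and knockdown after CSM 1, 2 and 3.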
